A study of Mus musculus with 8 samples.

Results

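The genes described here are 7 of the 24421 genes counted in single cells of mouse pancreatic islets. They are the MHC class I heavy chain genes *H2-K1*, *H2-D1* and *H2-T23*, the light chain gene *B2m*, the peptide transporter genes *Tap1* and *Tap2*, and the tapasin gene *Tapbp*. They were chosen by name as the core of class I antigen presentation, and all 7 had a column in each of the 8 count tables. The samples were 4 control and 4 PPTx islet preparations of male C57BL/6J mice aged 8 weeks. PPTx mice had a partial pancreatectomy of 50% and their islets were taken 2 days later, and control mice had no operation, so the effect of the resection and that of surgery itself cannot be told apart. Each sample pooled islets of 1 or more mice, and p-values measure the spread between these samples.

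MHC class I molecules carry peptides made in the cytosol to the cell surface, where CD8 T cells read them. The heavy chain folds with beta-2 microglobulin in the endoplasmic reticulum, the TAP transporter pumps peptides into that compartment, and tapasin holds the empty complex at the transporter until a fitting peptide is bound. Nucleated cells in general carry class I at a level that interferons raise, and β-cells of islets are the cells attacked by CD8 T cells in autoimmune diabetes.

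The 8 tables held 1240 cells, of which 1232 passed the study's limits of 100 to 3000 genes and 100 to 20000 unique molecular identifiers (UMIs, the count of captured RNA molecules). Total UMIs per table ran from 236645 to 1580152. A cell was given the class of the hormone that made up at least 60% of its hormone UMIs, which gave 955 β-cells (*Ins1*, *Ins2*), 115 α-cells (*Gcg*), 132 PP-cells (*Ppy*), 14 δ-cells (*Sst*) and 1 ghrelin cell, with 15 cells mixed. α-cells came mostly from control samples (95 of 115) and PP-cells mostly from PPTx samples (100 of 132). Independent markers were highest in their own class for 7 of 7 β-cell genes, 7 of 8 α-cell genes, 3 of 4 δ-cell genes and 2 of 4 PP-cell genes (*Pyy* and *Sertm1*), of which *Aqp3* was detected in no class and *Etv1* was highest in α-cells. The median β-cell held 7211 UMIs in control and 5656 UMIs in PPTx samples.

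Some cells in these classes were not hormone-rich. In 22 of the 1232 cells, hormone transcripts made up less than 20% of UMIs, and 14 of the 22 were classed as β-cells (3 control and 11 PPTx). By marker genes, 6 of the 22 were immune-like, led by *C1qc*, *Csf1r* and *Mpeg1*, with 9 to 11 of 13 immune markers detected in each cell. A further 4 were stellate-like, led by *Col3a1* and *Dcn*, with 3 to 5 of 7 stellate markers detected in each cell. No list of fibroblast markers was used, so fibroblasts were not told apart from stellate cells. Of the 22 cells, 1 was ductal-like and 11 stayed unnamed. Since the immune-like and stellate-like cells among them carried much *B2m* RNA, results that rest on them are given with and without cells below 20% hormone UMIs, and the cells above it are called hormone-rich.

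In the RefSeq annotation of GRCm38.p6 (mm10), *B2m* lies at chr2:122147687-122153082 on the plus strand, away from the other 6 genes. All of those lie within the major histocompatibility complex on chromosome 17: *Tapbp* at chr17:33919478-33929290, *H2-K1* at chr17:33996012-34000619, *Tap1* at chr17:34187556-34197225, *Tap2* at chr17:34204479-34216321, *H2-D1* at chr17:35263094-35267497 and *H2-T23* at chr17:36029977-36032701. An upstream window was at hand for 6 of the 7 genes, without *Tap2*. The windows of *B2m* and *H2-D1* are shown because the results on class differences and on hormone-poor cells turn on these genes, read on the gene's strand over the 250 bases before the annotated start (chr2:122147437-122147686 and chr17:35262844-35263093, both plus strand). Capitals mark matches on either strand to 4 motifs, the core of interferon regulatory factor sites (AANNGAAA), a kappa B site (the first 11 bases of the short stretches printed further on), the core of a cyclic AMP response element (TGACG) and the CCAAT box.
B2m: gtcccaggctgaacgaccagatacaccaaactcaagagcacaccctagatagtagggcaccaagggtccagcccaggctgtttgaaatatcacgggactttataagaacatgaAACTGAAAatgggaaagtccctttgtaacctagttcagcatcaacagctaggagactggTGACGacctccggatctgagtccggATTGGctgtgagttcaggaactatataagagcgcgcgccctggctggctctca
H2-D1: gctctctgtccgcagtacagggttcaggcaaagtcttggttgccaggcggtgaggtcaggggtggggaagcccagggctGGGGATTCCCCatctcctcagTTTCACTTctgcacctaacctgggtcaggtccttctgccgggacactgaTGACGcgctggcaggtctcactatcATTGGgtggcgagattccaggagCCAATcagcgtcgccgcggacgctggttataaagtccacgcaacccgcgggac

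Of 32817 upstream windows of this length, 21.3% held the interferon regulatory factor core, 17.7% TGACG and 33.8% the CCAAT box, whereas only 10 windows (0.0305%) held the full kappa B sequence, those of *H2-K1* and *H2-D1* among them. The window of *H2-K1* lies before the start of one transcript but within the gene span given above, so it may overlap another transcript of the gene. The windows of *H2-K1* and *H2-D1* were alike, with 167 identical of 190 aligned bases (87.9%). The stretch of 29 bases from the kappa B match to the interferon regulatory factor match differed by 1 base between them (*H2-K1* at chr17:34000430-34000458 on the minus strand and *H2-D1* at chr17:35262923-35262951 on the plus strand).
H2-K1: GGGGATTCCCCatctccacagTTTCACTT
H2-D1: GGGGATTCCCCatctcctcagTTTCACTT
*H2-K1* and *H2-D1* are close paralogs, and how reads shared between them were assigned is not given in the sources used here.

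The class I genes were captured at unequal rates. *H2-K1*, which encodes a classical heavy chain, gave 2478 UMIs and was seen in 960 of the 1232 cells (77.9%). *H2-D1*, the other classical heavy chain gene, gave 917 UMIs in 584 cells (47.4%), and *Tapbp* gave 903 UMIs in 579 cells (47.0%). *B2m* gave 557 UMIs in 279 cells (22.6%). *Tap2* (86 UMIs), *H2-T23*, a non-classical heavy chain gene whose product binds a receptor of natural killer cells (56 UMIs), and *Tap1* (49 UMIs) were each seen in under 7% of cells and did not pass the filter on low counts in any comparison. Because the libraries count the 3′ ends of transcripts, whose capture differs between genes, levels are compared between cells and not between genes. Class I UMIs were seen in β-, α-, PP- and δ-cells and in the ghrelin cell, though not for every gene in the smaller classes. As a measure of RNA from other cells, the β-cell gene *Ucn3* stood at 12.2 CPM in α-cells and 530.0 CPM in β-cells, and the part of such RNA in the class I values was not tested.

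*B2m*, the partner shared by every class I heavy chain, was highest per cell in a few hormone-poor cells. The 22 hormone-poor cells held 209 of the 557 *B2m* UMIs and the 1210 hormone-rich cells held 348. All 9 cells with 10 or more *B2m* UMIs were hormone-poor, whereas no hormone-rich cell held more than 6. Among them were the 6 immune-like cells, which held 37, 29 and 13 *B2m* UMIs in sample PPTx 1, 25 and 13 in PPTx 2, and 21 in control 3. Their pooled level was 9275 CPM (UMIs per 1000000 UMIs of those cells, exact Poisson 95% interval 7793 to 10958), against 43.9 CPM (38.9 to 49.3) in the 941 hormone-rich β-cells, a 211-fold difference. The 4 stellate-like cells stood at 3965 CPM (2777 to 5490, from 36 UMIs), 90.4-fold above hormone-rich β-cells. These intervals cover counting error only, and with 6 and 4 cells no test over samples was made.

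**Figure D1:**
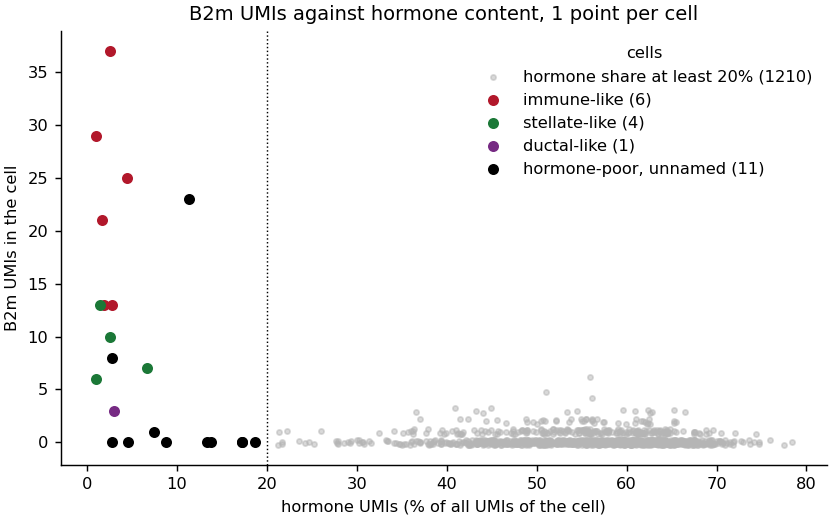
B2m UMIs in each of the 1232 cells (vertical axis, a count) against the percentage of the cell's UMIs that came from hormone genes (horizontal axis). The dotted line is at 20%, colours mark cells named by marker genes, and hormone-rich cells (grey) are spread slightly up and down to show their number. All points at 10 or more UMIs lie left of the line.

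The classical heavy chains and tapasin differed far less between these cells. *H2-K1* stood at 1479 CPM (927 to 2239) in immune-like cells, 4.90-fold above hormone-rich β-cells at 302 CPM. For *H2-D1* the immune-like level was 739 CPM (369 to 1323), 7.28-fold above the 102 CPM of hormone-rich β-cells, and for *Tapbp* it was 403 CPM (148 to 878), 3.65-fold above 111 CPM. *H2-T23* gave 5 UMIs in the immune-like cells (336 CPM, 109 to 784) and 38 in the 941 hormone-rich β-cells (5.98 CPM), a 56.2-fold difference from few UMIs. Hormones took 58.5% of the UMIs of β-cells and 0.985 to 4.41% of those of immune-like cells, which by itself raises the CPM of every other gene in the latter, so that these folds hold for CPM alone. The step from β-cell to immune-like cell was thus larger for *B2m* than for either classical heavy chain.

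A ratio within the same cells does not depend on how cells were scaled. *B2m* made up 80.7% of the *B2m*, *H2-K1* and *H2-D1* UMIs in immune-like cells (138 of 171, Clopper-Pearson 74.0 to 86.3%) and 67.9% in stellate-like cells (53.7 to 80.1%). In hormone-rich β-cells it was 9.81% (279 of 2843, 8.74 to 10.97%), in α-cells 10.3% (7.12 to 14.2%) and in PP-cells 7.39% (5.11 to 10.3%). As pooled, the 3 endocrine classes overlapped in their intervals and lay far below the immune-like and stellate-like cells. These intervals cover counting error only and leave out the spread between cells and samples.

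MHC class II genes, which present peptides taken up from outside the cell and belong mainly to professional antigen-presenting cells, lay almost wholly in the same few cells. Of 188 *H2-Aa* UMIs in all cells, 178 were in the 6 immune-like cells, as were 156 of 163 for *H2-Ab1*, 142 of 151 for *H2-Eb1* and 83 of 85 for *Cd74*, the invariant chain. Class II UMIs were uneven over these cells, at 192, 186 and 1 in the cells of PPTx 1, 15 and 153 in PPTx 2, and 32 in control 3. Hormone-rich β-cells held 18 class II UMIs in 941 cells, PP-cells 17 in 126 cells and α-cells 2 in 115 cells. The class II transactivator gene *Ciita* was at 0 in all cells.

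The first comparison asked whether class I genes differ between hormone-defined classes of the same samples. Of the 7 genes, 4 could be tested. *H2-D1* was higher in α-cells than in β-cells and higher in PP-cells than in β-cells, and *H2-K1*, its near neighbour in sequence, did not pass the test in either class.

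*H2-D1* in β-cells stood at 135, 104, 88.9 and 88.4 CPM in control samples 1 to 4 and at 107, 149, 92.4 and 74.7 CPM in PPTx samples 1 to 4. In α-cells it stood at 197, 278, 217 and 116 CPM in the control samples and at 322 and 277 CPM in PPTx 2 and PPTx 3, the 2 PPTx samples with at least 5 α-cells. In PP-cells it stood at 205, 125 and 182 CPM in control samples 2 to 4 and at 141, 185, 177 and 158 CPM in the PPTx samples. Within each sample the α-cell and the PP-cell value lay above the β-cell value, although across samples the classes overlapped (α-cells of control 4 lay below β-cells of control 1). The lowest α-cell sums were thin, with 3 *H2-D1* UMIs from 6 cells in control 1.

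The rise of *H2-D1* in α-cells over β-cells was 0.75 on the log2 scale (SE 0.21, 95% interval 0.34 to 1.16, edgeR quasi-likelihood test with Benjamini-Hochberg adjusted p = 0.00182), with means of 234 ± 73.9 and 109 ± 25.9 CPM (SD, n = 6 samples) and a higher value in 6 of 6 samples. These CPM are not TMM-scaled, and in control 4 the excess of 116 over 88.4 CPM was smaller than the median shift of all genes without that scaling (0.47 on the log2 scale). In the same comparison 47% of the 1402 genes tested were called (659 genes, 334 higher and 325 lower), so 1 call among 4 tested class I genes is no more than the share of genes called in general. In hormone-rich cells with no filter on low counts, 331 genes were called higher and 1051 lower. With totals left unscaled by TMM the *H2-D1* value was 1.20 (adjusted p 9.0e-07), where the median of all genes moved by 0.47. The call was lost when all low-count genes were kept (0.31, adjusted p = 0.604, median of all genes −0.41), when cells were thinned to 2600 UMIs (0.65, adjusted p = 0.0833) and when sums needed 10 cells (0.58, adjusted p = 0.0735). Relative to the median of all genes, the rise lay between 0.58 and 0.77 over the 13 settings.

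In PP-cells *H2-D1* rose by 0.65 over β-cells (SE 0.18, 0.29 to 1.01, edgeR adjusted p = 0.00201), with means of 167 ± 27.6 and 101 ± 23.8 CPM (SD, n = 7) and a higher value in 7 of 7 samples. Here 48.4% of the 1402 genes tested were called, and the call was lost with low-count genes kept (0.28, adjusted p = 0.549, median of all genes −0.41) and with thinned cells (0.43, adjusted p = 0.231). Relative to the median of all genes the rise lay between 0.42 and 0.70 over the 13 settings.

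**Figure D2:**
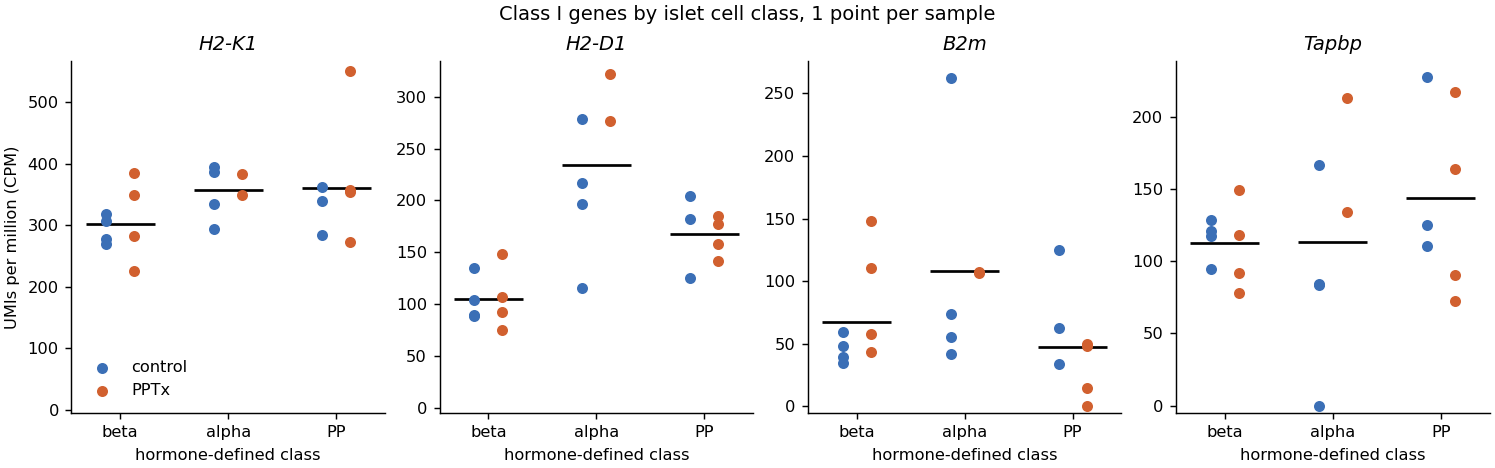
Level of 4 class I genes (vertical axes, CPM) by hormone-defined class, with 1 point per sample of at least 5 cells (blue control, orange PPTx) and a bar at the mean of all samples. The mean of H2-D1 is higher in alpha and PP cells (234 and 167 CPM) than in beta cells (105 CPM), and the points of the classes overlap for all 4 genes.

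*H2-K1* stood between 226 and 385 CPM in β-cells, between 294 and 394 CPM in α-cells and between 273 and 551 CPM in PP-cells. Its difference from β-cells was −0.12 (−0.43 to 0.18, edgeR adjusted p = 0.596) in α-cells and 0.25 (0.00 to 0.50, adjusted p = 0.0869) in PP-cells. By CPM, which is not TMM-scaled, *H2-K1* was higher than in β-cells in 5 of 6 samples for α-cells (means 357 and 318). For PP-cells it was higher in 6 of 7 (means 360 and 299). Without TMM scaling the α-cell value was 0.32, where the median of all genes was 0.47. Relative to that median *H2-K1* lay between −0.20 and −0.10 in α-cells and between 0.14 and 0.28 in PP-cells over the 13 settings. In hormone-rich cells alone the PP-cell difference was 0.31 (adjusted p = 0.0370), where 47.3% of genes were called. With low-count genes kept it was −0.16, where the median of all genes was −0.41.

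Because both heavy chain genes were counted in the same cells, the *H2-D1* share of their joint UMIs was also taken, a measure added after the values were seen. It was 25.7 ± 3.99% in β-cells (SD, n = 8, 20.9 to 32.2%), 38.8 ± 7.61% in α-cells (n = 6, 28.2 to 48.0%) and 32.2 ± 5.86% in PP-cells (n = 7, 25.2 to 39.3%). The α-cell share exceeded the β-cell share by 13.4 points, in 6 of 6 samples (two-sided exact permutation test of paired signs, p = 0.0313, which is the lowest 6 samples can reach). The PP-cell share exceeded it by 7.07 points, in 5 of 7 samples (exact p = 0.109). α-cells and PP-cells differed by 6.59 points over 5 samples (exact p = 0.313), where 5 samples cannot go below 0.0625. Between PPTx and control the share differed by −0.514 points in β-cells and 1.59 points in cells of other hormones (exact p = 0.8 and 0.743). Over these 5 comparisons no Benjamini-Hochberg adjusted p passed, the lowest being 0.156 for α-cells (exact permutation test).

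**Figure D3:**
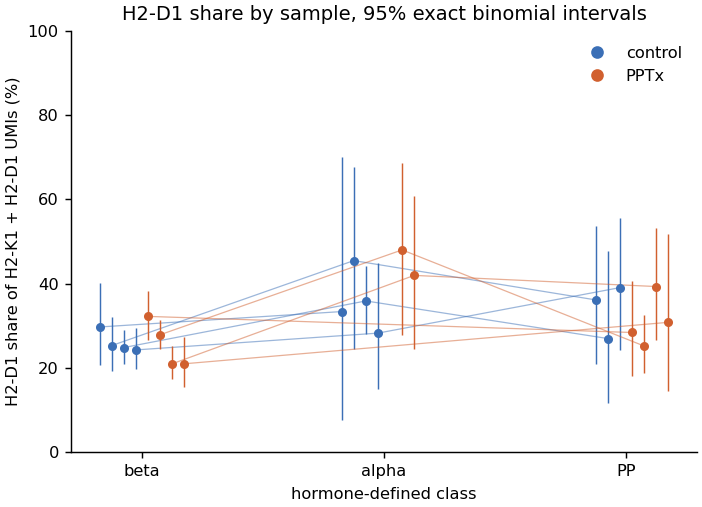
H2-D1 share of the joint H2-K1 and H2-D1 UMIs (vertical axis, %) by hormone-defined class, with 1 point per sample (blue control, orange PPTx), exact binomial 95% intervals as bars and lines joining classes of the same sample. In all 6 samples with both classes the alpha value lies above the beta value.

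*B2m* stood between 34.9 and 148 CPM in β-cells, between 41.6 and 263 CPM in α-cells and between 0 and 125 CPM in PP-cells. The difference of α-cells from β-cells was 0.01 (−0.69 to 0.71, edgeR adjusted p = 0.988). CPM means without TMM were 108 ± 80.3 and 58.4 ± 27.5 (SD, n = 6), higher in 4 of 6 samples. In hormone-rich cells, where *B2m* was not testable, they were 108 ± 80.3 and 44.5 ± 17.1, higher in 5 of 6. With those cells and no filter the fitted value was 0.07 (edgeR adjusted p = 0.945), beside a median of −0.40 over all genes. Relative to the median of all genes *B2m* in α-cells lay between −0.24 and 0.47 over the 10 settings that gave a value. In PP-cells it stood at 62.9, 125 and 34.1 CPM in control samples 2 to 4 and at 14.9, 49.7, 48.2 and 0 CPM in the PPTx samples, so that control 3 was the highest and PPTx 4 had no UMI. In this class *B2m* was called lower than in β-cells, by −0.85 (SE 0.32, adjusted p = 0.0242), with means of 47.8 ± 40.2 and 72.4 ± 41.0 CPM (SD, n = 7), lower in 5 of 7 samples. In hormone-rich cells *B2m* no longer passed the filter on low counts. The means were then 47.0 ± 41.1 CPM in PP-cells and 44.6 ± 15.9 CPM in β-cells, with PP-cells still lower in 5 of 7 samples and the PP mean raised by control 3. With those cells and no filter the value was −0.40 (adjusted p = 0.547), beside a median of −0.38 over all genes, and with DESeq2 on all cells it was −0.59 (adjusted p = 0.278). With sums of at least 10 cells it was −1.42 (edgeR adjusted p = 0.000273). Relative to the median of all genes it lay between −1.42 and −0.03 over the 10 settings that gave a value.

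*Tapbp* stood between 77.7 and 149 CPM in β-cells, between 0 and 213 CPM in α-cells and between 72.3 and 227 CPM in PP-cells. Its differences from β-cells were −0.18 (−0.67 to 0.32, edgeR adjusted p = 0.580) in α-cells and 0.27 (−0.14 to 0.67, adjusted p = 0.285) in PP-cells. Relative to the median of all genes *Tapbp* lay between −0.44 and −0.13 in α-cells and between 0.23 and 0.52 in PP-cells over the 13 settings. These intervals reach differences of up to 0.67 on the log2 scale, not far from those seen for *H2-D1*.

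Shares of cells with a UMI, taken after thinning each cell to 2600 UMIs (123 shallower cells left out), were also taken, pooled over samples, so that their intervals leave out the spread between samples. *H2-D1* was seen in 40.2% of α-cells (Clopper-Pearson 30.4 to 50.7%), 33.0% of PP-cells (24.6 to 42.4%) and 24.6% of β-cells (21.8 to 27.6%), with the PP and β intervals overlapping. Without thinning the shares were 55.7% in α-cells and 45.3% in β-cells, at median depths of 3973 and 6061 UMIs. *H2-K1* was seen in 57.7% of α-cells (47.3 to 67.7%) and 53.0% of β-cells (49.7 to 56.4%), with overlapping intervals.

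δ-cells, which secrete somatostatin, were too few for a test, since no sample held 5. Pooled over 14 cells, *H2-K1* gave 29 UMIs (669 CPM, 448 to 961), and over the 13 hormone-rich δ-cells 23 UMIs (557 CPM, 353 to 836), above the 302 CPM (288 to 315) of hormone-rich β-cells. Hormones took 37.3% of UMIs in δ-cells and 58.5% in β-cells, and the part of that gap in the *H2-K1* levels was not tested. All 23 *B2m* UMIs of the class lay in 1 hormone-poor cell of PPTx 2, which left 0 in the other 13 (upper limit 89.4 CPM).

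The second comparison asked whether β-cells differ in class I genes 2 days after PPTx. No class I gene of the 4 tested was called, by edgeR or by DESeq2, while 0.287% of the 5925 genes tested were called (17 genes). *B2m* alone had an unadjusted p under 0.05.

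*B2m* in β-cells stood at 34.9, 59.3, 39.3 and 48.2 CPM in control samples 1 to 4 and at 148, 111, 57.5 and 43.7 CPM in PPTx samples 1 to 4. PPTx 1 and PPTx 2 lay above every control, whereas PPTx 3 and PPTx 4 lay within the control range. The difference was 0.86 (SE 0.29, 0.27 to 1.45, unadjusted p = 0.00611, edgeR adjusted p = 0.267), and the exact permutation p of the CPM values was 0.143 (4 against 4 samples, smallest possible 0.0286). With low-count genes kept, *B2m* was called at 0.89 (adjusted p = 0.0131).

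Hormone-poor cells held 43.9% of the *B2m* UMIs of PPTx β-cells (148 of 337, in 11 of 579 cells) and 29.1% of those of control β-cells (37 of 127, in 3 of 376 cells). In hormone-rich β-cells the levels were 34.9, 59.3, 22.9 and 30.0 CPM in control samples and 47.6, 62.1, 57.5 and 33.1 CPM in PPTx samples. The groups overlapped there, with 1 PPTx sample above the highest control. The difference was 0.47 (−0.06 to 0.99, edgeR adjusted p = 0.576, exact permutation p = 0.257, 4 against 4 samples), where 0.289% of genes were called. With hormone-rich cells and low-count genes kept it was 0.50 (adjusted p = 0.634). The summed level of 13 immune markers ran from 24.9 to 88.9 CPM in control and from 24.6 to 282 CPM in PPTx β-cells. In hormone-rich β-cells it ran from 24.9 to 43.3 and from 18.3 to 42.3 CPM. The relation of these markers to *B2m* over samples was not tested. Stellate markers ran from 0 to 90.7 CPM in control and from 1.03 to 257 CPM in PPTx β-cells, while in hormone-rich β-cells they reached 7.88 and 3.86 CPM. Acinar markers ran from 2.12 to 14.96 CPM in control and from 7.19 to 117 CPM in PPTx β-cells, and up to 14.96 and 116 CPM in hormone-rich ones. Ductal markers ran from 152 to 203 and from 147 to 298 CPM, and up to 174 and 301 CPM in hormone-rich β-cells. Over all β-cells *Krt7* gave 999 and *Spp1* 206 of the ductal marker UMIs, against 11 for *Krt19*, 6 for *Sox9* and 2 for *Muc1*. Whether this RNA came from ductal cells was not tested. The part of acinar RNA and of these marker RNAs in the *B2m* values was not tested.

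**Figure D4:**
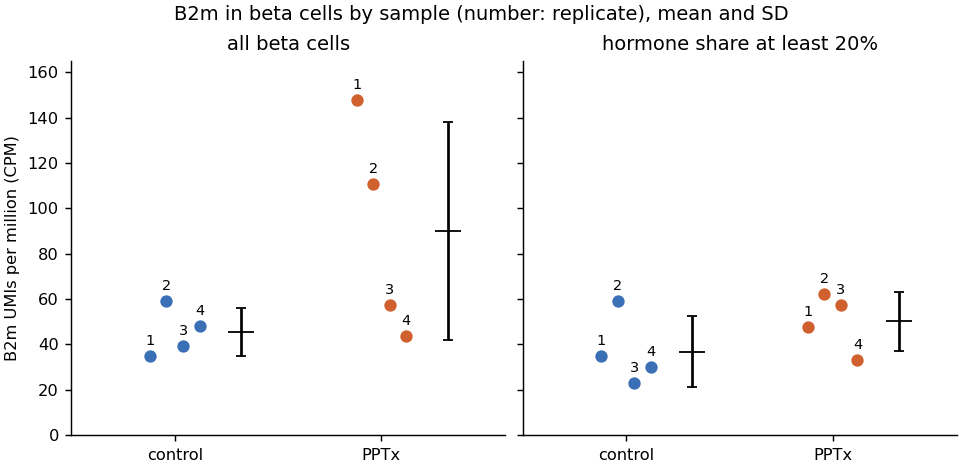
B2m level of beta cells (vertical axis, CPM) in control (blue) and PPTx (orange) samples, numbered by replicate, with the mean and SD beside each group. With all beta cells (left) PPTx 1 and PPTx 2 lie at 148 and 111 CPM, and in hormone-rich beta cells (right) they lie at 47.6 and 62.1 CPM, within or just above the control range.

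The heavy chains and tapasin showed no such split. *H2-K1* in β-cells stood at 319, 307, 270 and 277 CPM in control samples and at 226, 385, 349 and 283 CPM in PPTx samples, with PPTx values on both sides of the controls. Its difference was −0.02 (−0.34 to 0.30, edgeR adjusted p = 0.993). For *H2-D1* the difference was −0.02 (−0.41 to 0.37, adjusted p = 0.997). Both values crossed 0 with other settings, and the intervals leave room for changes of up to about 0.4 on the log2 scale in either direction.

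*Tapbp* stood at 94.7, 121, 128 and 117 CPM in control and at 77.7, 92.0, 118 and 149 CPM in PPTx β-cells, with the PPTx samples spread more widely than the controls. The difference was −0.24 (−0.67 to 0.20, edgeR adjusted p = 0.787). *H2-T23* stood between 1.82 and 15.7 CPM, *Tap1* between 2.12 and 12.7 CPM and *Tap2* between 1.82 and 23.3 CPM over the 8 β-cell sums. Many of these sums held fewer than 10 UMIs. With low-count genes kept, the differences were −0.02 (−1.25 to 1.22) for *H2-T23*, 0.23 (−0.84 to 1.30) for *Tap1* and −0.26 (−1.11 to 0.59) for *Tap2*, none called by edgeR.

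After thinning, the share of β-cells with a *B2m* UMI was 8.51, 10.7, 9.24 and 8.77% in control samples and 13.3, 16.2, 16.5 and 7.08% in PPTx samples. The first 3 PPTx samples lay above the controls and PPTx 4 lay below them. The mean difference was 3.96 points (9.30 ± 0.961% against 13.3 ± 4.37%, SD, n = 4 each, exact permutation p = 0.143), and without thinning the means were 19.9 and 25.8%. In hormone-rich cells the thinned difference was 3.65 points (exact p = 0.171). Of the 7 genes none passed at 0.05. Leaving out PPTx 4, the PPTx sample below the controls, put every remaining PPTx value of *B2m* above every control. *B2m* alone then passed, at the lowest p that these samples can reach, a pass set by which sample was left out.

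In the pooled cells of the other hormones (α-, PP-, δ- and ghrelin cells), 3 class I genes could be tested between PPTx and control, and none was called, where 0.52% of 1537 genes were (8 genes). *H2-K1* differed by 0.22 (−0.25 to 0.68), *H2-D1* by 0.15 (−0.37 to 0.67) and *Tapbp* by 0.12 (−0.47 to 0.72), with edgeR adjusted p of 0.837, 0.922 and 0.943. This class was a different mixture in the groups, with mostly α-cells in control and mostly PP-cells in PPTx samples. In PP-cells alone the values were 0.20 for *H2-K1*, −0.11 for *H2-D1* and −0.46 for *Tapbp*, none called, as was none of the 641 genes tested (38 at an unadjusted p under 0.05).

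The PPTx effect in cells of other hormones minus that in β-cells was tested as an interaction, in which 0.224% of 3576 genes were called. For *B2m* it was −0.57 (−1.43 to 0.29, edgeR adjusted p = 0.825) and −0.89 in hormone-rich cells (adjusted p = 0.636, with 0.262% of genes called). It was 0.22 for *H2-K1*, 0.07 for *H2-D1* and 0.46 for *Tapbp*, none called. No class I gene was thus shown to respond differently in the 2 classes.

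Replicating β-cells, defined by at least 2 UMIs over 10 replication markers, numbered 41 against 914 other β-cells. Of the 4 class I genes tested none was called, where 5.32% of 2650 genes were (141 genes). *B2m* differed by 0.44 (−0.25 to 1.12, edgeR adjusted p = 0.596), and the sign changed to −0.72 without PPTx 2. PPTx 2 held 15 of the 41 cells, and 2 of its 15 were hormone-poor, an immune-like cell with 13 *B2m* UMIs and a stellate-like cell with 7. In hormone-rich β-cells the difference was 0.59 (adjusted p = 0.512), with pooled levels of 79.8 CPM in 39 replicating and 42.1 CPM in 902 other cells. With thinned cells *B2m* was called at 1.37 (edgeR adjusted p = 0.0418). The thinned setting was not limited to hormone-rich cells. The immune-like cell of PPTx 2, with 3038 UMIs, was deep enough to be kept in it. The part of that cell in the call was not tested. *H2-K1* differed by −0.16, *H2-D1* by −0.08 and *Tapbp* by 0.03, against a median of −0.12 over all genes.

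**Figure D5:**
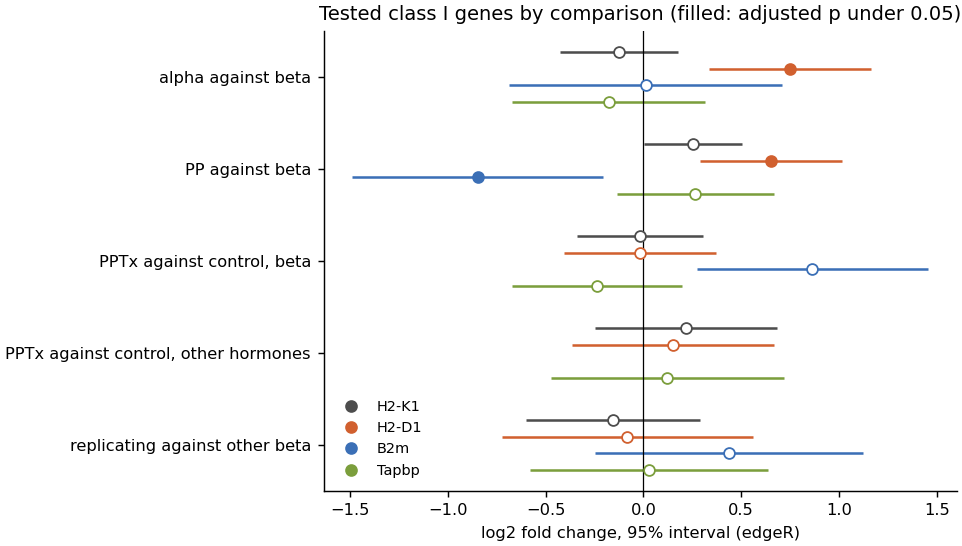
Log2 fold change (horizontal axis) with 95% intervals from edgeR for each class I gene that could be tested in each of 5 comparisons. Filled points have an adjusted p under 0.05, which are H2-D1 in alpha and PP cells (0.75 and 0.65) and B2m in PP cells (−0.85), the last of which was not testable in hormone-rich cells.

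Beside the 7 genes, 19 further genes of the class I pathway were followed, of which 14 were detected and 5 could be tested between classes. Of these 5, 2 were called in α-cells and 3 in PP-cells, near the 47% and 48.4% of all genes called in these comparisons. The proteasome activator genes *Psme1* and *Psme2*, whose products open the proteasome core, rose in PP-cells by 0.99 (edgeR adjusted p = 0.00417) and 0.91 (adjusted p = 0.00154). *Psme1* also rose in α-cells, by 1.53 (adjusted p = 9.14e-05), and *Psme2* was at 0.71 there (adjusted p = 0.0522). *Calr*, the lectin chaperone calreticulin of the loading complex, fell by 1.02 in α-cells (adjusted p = 3.68e-07) and fell by 1.31 in PP-cells (adjusted p = 4.50e-12). *Canx* and *Pdia3*, a chaperone and an oxidoreductase of the same compartment, were not called in either class. The median over the 5 genes was −0.32 in α-cells and −0.04 in PP-cells, beside 0.02 over all genes in both. *Psme1* stood at 27.5 CPM in hormone-rich β-cells and 95.7 CPM in α-cells, and *Calr* at 623 and 395 CPM.

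After PPTx, 7 of these pathway genes could be tested in β-cells and none was called, with a median of 0.32 beside −0.01 over all genes. The oxidoreductase gene *Pdia3*, named after its value was seen, differed by 0.45 (edgeR adjusted p = 0.471). Of 36 interferon signalling and response genes, 34 were detected and 7 could be tested in β-cells. None of them was called (median −0.14), and none could be tested between classes. *Nlrc5*, the transactivator of class I genes, was at 0 in all cells.

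The genes most like each class I gene over the 21 sums of β-, α- and PP-cells were ranked by Pearson's r of log2 CPM among 3002 genes. The sums share samples and differ in depth, so r is a description. For *H2-K1* they were *Alkbh5* (0.925), *Atp1b1* (0.847) and *Casc4* (0.838), and for *H2-D1* they were *Gprasp1* (0.785), *Zwint* (0.726) and *Zmym2* (0.702). For *B2m* the first was *Rab39b* (0.856), and for *Tapbp* it was *Ctbp1* (0.916). Among the class I genes themselves, r was 0.635 for *H2-K1* with *Tapbp*, 0.177 for *H2-K1* with *H2-D1* and −0.03 for *B2m* with *H2-K1*.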

How the data were processed

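Islets of 4 control and 4 PPTx samples were dispersed and sequenced as single cells. Per the study's methods the authors aligned reads to mm10 and counted them with Cell Ranger, and they deposited whole-number UMI counts per gene and cell, 1 table per sample, without normalization. The labels and the methods name different library kits, and the sources used here do not give the choice of cells ahead of deposit.

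Cells were classed by leading hormone (at least 60% of hormone UMIs). Counts were summed per sample and class (at least 5 cells, or at least 2 replicating β-cells) and tested by the quasi-likelihood F test of edgeR 4.0.16 after filterByExpr and TMM scaling (Benjamini-Hochberg over all genes tested, threshold 0.05), with the sample as a block where classes of the same samples were compared and no covariate otherwise. DESeq2 1.42.0 was an alternative. CPM is UMIs per 1000000 UMIs of a class. Single values were tested by exact permutation over samples. Scrublet marked 117 possible doublets, which were kept and left out as an alternative. 1 barcode occurred in 2 samples. On simulated counts the fits recovered 96.9% of genes changed by 1.5 (log2) for α against β-cells and 99.5% for PP against β-cells. For PPTx against control they recovered 94.8% in β-cells and 96.3% in other hormones, but 63.3% for the interaction and 81.5% for replicating cells. The other genes were simulated without a change. Smaller changes, such as the 0.75 and 0.65 of *H2-D1* in α- and PP-cells, were not simulated, so their recovery is not known. The members and lists were chosen with earlier results of these data known. Named genes were chiefly the members, the pathway list genes called, and the 5 genes most like each member, of which fewer are printed. Others, such as *Canx*, *Pdia3*, *Nlrc5*, *Ciita*, the class II genes and cell markers, were named outside this rule. Comparisons of hormone-rich cells were added after seeing the data. Sequences are from RefSeq tables for GRCm38.p6.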

Additional observations from a re-analysis of the deposited data

Results flagged for a closer look

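Of 28 groups of 4 samples examined for a sample far from the other 3, 3 had one, and chance gives about 1 in 20. *H2-T23* in PPTx β-cells stood at 15.7 CPM in PPTx 2 (20 UMIs), against 1.82 to 3.82 CPM in the other 3 samples. *B2m* in control cells of other hormones stood at 149 CPM in control 1 (4 UMIs), against 51.0 to 56.3 CPM in the others. *H2-T23* in PPTx cells of other hormones was at 0 in PPTx 4, against 11.3 to 12.3 CPM in the others, which rest on 2 or 3 UMIs each. PPTx 4 held 54142 UMIs in this class, where 3 UMIs would stand at 55.4 CPM, so its 0 does not set it apart. The 20 UMIs of PPTx 2 came from 237 β-cells, 16 of them with a UMI, and without hormone-poor cells its level was 12.7 CPM.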

How the results depend on the processing

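Of 558 recomputed class I values (each result under each alternative), 480 kept their direction and their side of the threshold, 52 changed sign, 9 lost and 3 gained a call, and 14 counts moved. In α-cells against β-cells the count of called class I genes went from 1 to 0 with no filter on low counts, with thinned cells, with sums of at least 10 cells and with no filter in hormone-rich cells. In PP-cells it went from 2 to 1 with DESeq2, with no filter and without other-type cells, to 0 with thinned cells and with no filter in hormone-rich cells, and leaving out each replicate gave 1 to 2 (1 without PPTx 1 or PPTx 2). After PPTx in β-cells it went from 0 to 1 with no filter, and in replicating β-cells from 0 to 1 with thinned cells. For the thinned share, leaving out each replicate gave 0 to 1 (1 without PPTx 4). The causes were not tested.

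Some signs changed where the median of all genes moved too. That median was 0.47 for α-cells without TMM, −0.41 for α- and PP-cells with no filter and −0.38 for PP-cells with no filter in hormone-rich cells. Relative to it *H2-K1* and *Tapbp* kept their sign in both classes over the 13 settings. Without TMM it was also 0.13 for PPTx in β-cells, −0.13 in other hormones and −0.26 for the interaction, and with no filter −0.71 in replicating cells. Without TMM, signs as fitted changed for α-cells against β-cells in *H2-K1* (0.32) and *Tapbp* (0.28), for PPTx β-cells in *H2-K1* (0.11) and *H2-D1* (0.12), for other hormones in *Tapbp* (−0.01), for the interaction in *H2-K1* (−0.06) and *H2-D1* (−0.21), and for replicating β-cells in *H2-K1* (0.07) and *H2-D1* (0.11). With no filter they changed for *B2m* in α-cells (−0.41), for *H2-K1* (−0.16, and −0.12 in hormone-rich cells) and *Tapbp* (−0.14 and −0.15) in PP-cells, for *H2-K1* (0.02, also in hormone-rich cells) and *H2-D1* (0.02) after PPTx, and for *B2m* (−0.16) and *Tapbp* (−0.54) in replicating cells. *B2m* in α-cells was −0.04 without hormone genes, −0.07 with the leading hormone without a minimum, −0.18 without Scrublet doublets and −0.25 with sums of at least 10 cells. *H2-D1* after PPTx was 0.03 with thinned cells, and *H2-K1* in other hormones −0.05. PP-cells alone gave −0.11 and, if hormone-rich, −0.17 for *H2-D1*, and −0.46 and −0.45 for *Tapbp*. The interaction of *H2-D1* was −0.01 with a leading hormone at 0.8 and −0.04 without doublets. In replicating cells *B2m* was −0.15 with DESeq2 and −0.24 with at least 3 marker UMIs, and *Tapbp* was −0.15 with at least 3 marker UMIs, −0.04 in hormone-rich cells and −0.06 without other-type cells.

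Leaving out each replicate gave ranges of −0.26 to 0.23 for *B2m* in α-cells, −0.08 to 0.10 for *H2-K1* and −0.15 to 0.08 for *H2-D1* after PPTx in β-cells, −0.02 to 0.37 for *Tapbp* in other hormones, −1.56 to 0.07 for *B2m* and −0.11 to 0.22 for *H2-D1* in the interaction, and −0.72 to 0.88 for *B2m* and −0.12 to 0.11 for *Tapbp* in replicating cells. The *H2-D1* rise stayed between 0.59 and 0.87 in α-cells (highest adjusted p 0.0394) and between 0.53 and 0.74 in PP-cells (0.0315).

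Counts of all genes called moved by over 1.5 times. With no filter they were 1332 in α-cells (659 before), 1498 in PP-cells (679), 92 for PPTx in β-cells (17), 14 in other hormones (8), 5 for the interaction (8) and 546 in replicating cells (141). In hormone-rich cells with no filter they were 1382 in α-cells (331 higher, 1051 lower), 1511 in PP-cells (367 and 1144) and 70 for PPTx in β-cells. With thinned cells they were 333, 315, 2 in other hormones, 2 for the interaction and 41 in replicating cells. Without TMM they were 28 for PPTx in β-cells, 13 in other hormones and 85 for the interaction. In other hormones they were 5 in hormone-rich cells and 0 in PP-cells alone. The interaction gave 1 with DESeq2 and 3 with a leading hormone at 0.8. Leaving out each replicate gave 1 to 18 for PPTx in β-cells, 4 to 22 in other hormones and 3 to 11 for the interaction.

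Deviations of same-numbered β-cell sums correlated at 0.155, 0.0784, 0.120 and 0.272. Numbers were taken to pair samples where each of the 4 exceeded 0.1, so they were not used as pairs, although controls 1, 3 and 4 were most like the PPTx sample of their own number, a hint from the data. Control 2 was about as like PPTx 3 (0.0794). In cells of other hormones the same-number values were 0.00652, 0.00673, 0.0567 and 0.0650. There control 1 was most like PPTx 2 and control 2 most like PPTx 1, while controls 3 and 4 were most like their own number. With the replicate block, 38 genes were called for PPTx in β-cells and 46 in hormone-rich ones, 11 and 13 in other hormones, *B2m* was at 0.61 (adjusted p = 0.334), and no class I gene was called. Comparison of δ-cells could not be fitted. Depth limits *H2-T23*, *Tap1* and *Tap2*, which passed no filter.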

Other observations

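Cells outside the tested classes held few class I UMIs. The 15 cells with mixed hormones gave 27 *H2-K1* UMIs (409 CPM, exact Poisson 95% interval 270 to 595), 10 *H2-D1* UMIs (151 CPM, 72.6 to 279), 10 *Tapbp* UMIs and 5 *B2m* UMIs (75.7 CPM, 24.6 to 177). The 1 ghrelin cell, from PPTx 1, gave 2 *H2-D1* and 2 *Tapbp* UMIs and none of *H2-K1* or *B2m*. The single ductal-like cell, from control 4, gave 3 *B2m* UMIs and none of the other 6 genes. Among the 11 unnamed hormone-poor cells, *B2m* stood at 970 CPM (664 to 1370), with 23 of its 32 UMIs in 1 cell, and 8 of the 11 cells held none.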
